A study of Macaca mulatta with 27 samples.

Results

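NHSM-v cells and primed cells are 2 states of rhesus macaque embryonic stem cells (ESCs) that were profiled by bulk RNA sequencing, 3 libraries of the former and 6 of the latter among the 27 libraries of the series. They were taken by their group labels, and every gene in the count tables was compared. All cells came from LyonES, a line of rhesus ESCs that carries a tauGFP transgene under the CAG promoter, a ubiquitous promoter. A single clone of it, LyonES-tGFP-(S3), was used, and this clone also carries STAT3-ERT2, a STAT3 protein that tamoxifen activates. Primed cells are these cells in conventional culture. NHSM-v cells were obtained from them in NHSM-v, a published variant of naive human stem cell medium, and received no tamoxifen, so that the STAT3 fusion stayed inactive. Primed cells were passaged mechanically as clumps and NHSM-v cells as single cells after enzymatic digestion, so the medium and the way of passaging cannot be told apart here. The labels class the former as primed and the latter as naive ESCs. The primed libraries carry the letters J and K, 3 libraries each, and the labels do not say what the letters stand for. Sample titles and protocol labels also divide the primed libraries, but not in the same way.

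Pluripotent cells exist in at least a naive and a primed form. Naive cells resemble the epiblast of the blastocyst before implantation, and primed cells resemble the later epiblast that is about to form the germ layers. Both forms depend on a network of transcription factors around OCT4 (encoded by POU5F1), SOX2, and NANOG, and each adds its own regulators, such as KLF17 and TFCP2L1 in the naive form and ZIC2 and SALL2 in the primed form. Loss of the network is a hallmark of exit from pluripotency into a lineage.

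Reads were counted per gene symbol, and levels are given as CPM, counts scaled to the size of the library, after TMM scaling, which corrects each library's total for its composition. NHSM-v libraries held between 9504626 and 12201171 counts and primed libraries between 7111886 and 15183387. The log2 CPM of library pairs of the same group correlated across genes, which are not independent replicates, between 0.965 and 0.971 for NHSM-v (3 pairs) and between 0.909 and 0.959 for primed cells (15 pairs). Low counts were scarcer in these tables than in those of another protocol of the series. Between 830 and 1081 genes had 1 to 7 counts in an NHSM-v library and between 301 and 864 in a primed library, where libraries of 4i/L/b, another naive protocol, had from 1702 to 1873. Primed library J3, which held the fewest counts (7111886), stood apart with 5635 genes at 0, against 4122 to 4842 in the other 5. The origin of this shortage was not tested, and a level of 0 is given as a deposited count only. In an NHSM-v library 3 counts corresponded on average to 0.297 CPM and in a primed library to 0.295 CPM, and bounds on fold changes against a group at 0 use these values. Counting intervals and bounds cover counting error only.

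Of 13268 genes that passed edgeR's filter on low counts, 7775 differed between NHSM-v and primed cells by its quasi-likelihood test, with a Benjamini-Hochberg adjusted p under 0.05 (58.6% of the genes tested). In NHSM-v cells 3719 genes were higher (28%) and 4056 were lower (30.6%). Without primed library J3 the number was 8186, and with every count under 20 raised to 20 it was 7903. Changes of at least 2-fold were found for 2328 higher and 2232 lower genes, and changes of at least 8-fold for 649 and 616. The median log2 fold change over all genes tested was -0.02. The libraries of both groups did not overlap for 55.7% of the genes tested, 28.9% with all NHSM-v libraries above the primed ones and 26.7% with all below. Nothing in the labels says that libraries of a group came from separate cultures, so that the p-values measure the spread between these libraries, which may be technical. All fold changes below are NHSM-v over primed on the log2 scale with their standard error, ratios given with a 95% counting interval are of the higher to the lower group (a ratio over 1 count rests on 1 library), means are followed by the SD over 3 NHSM-v or 6 primed libraries, and "rose" and "fell" are used of genes that passed this test. Counts of list members that rose or fell are to be read against the shares of all genes tested, 28% and 30.6%. In bulk RNA, fewer cells that express a gene and less of its RNA per cell cannot be told apart.

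**Figure D1:**
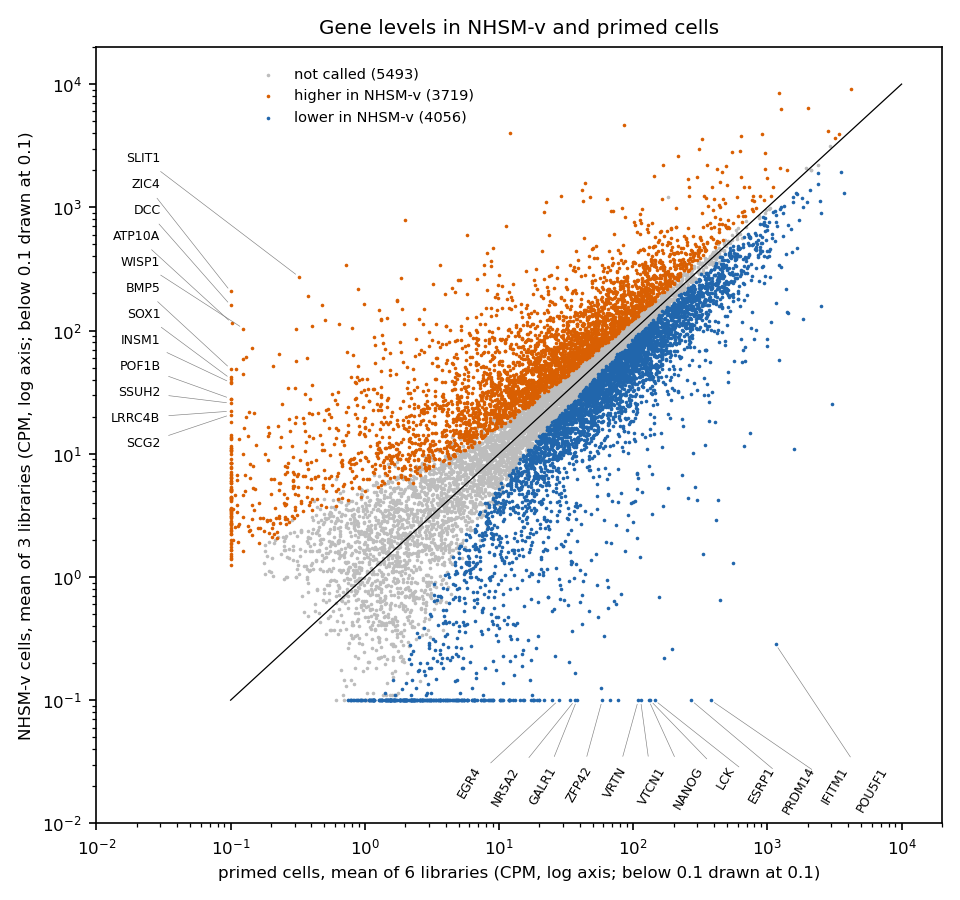
Mean level of each tested gene in primed cells (horizontal axis) and NHSM-v cells (vertical axis), in CPM on log axes, with means below 0.1 CPM drawn at 0.1; orange genes were higher in NHSM-v cells (3719), blue genes lower (4056), and grey genes were not called (5493). The named genes are the 12 of largest fitted rise and the 12 of largest fitted fall with a mean of at least 20 CPM in the higher group and no overlap between libraries.

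NHSM-v cells had lost nearly all RNA of the core pluripotency genes. The list holds 15 symbols, of which 14 were in the tables, and all 14 fell, where 30.6% of all genes tested did, with a median log2 fold change of -9.10 (-7.41 with the 4 genes at 0 in NHSM-v set to their bounds). POU5F1, which encodes OCT4, was at 0.22, 0.202, and 0.431 CPM in the 3 NHSM-v libraries and at 1069.5 to 1269 CPM with a median of 1145 in the primed libraries, a log2 fold change of -11.91 ± 0.16 (edgeR adjusted p = 3.37e-16). Not a single read of NANOG was counted in NHSM-v cells, where primed cells had 105 to 153 CPM with a median of 131, so NANOG was at least 439-fold lower. PRDM14, a repressor of somatic genes that keeps OCT4 expressed in human ESCs, was also at 0 in all 3 libraries against 198 to 344 CPM with a median of 272, at least 908-fold lower. ZFP42, the REX1 gene, was at 0 against 47.4 to 72.7 CPM with a median of 58.4 (at least 198-fold lower), and DPPA2 was at 0 against 5.73 to 14.5 CPM with a median of 13.2 (at least 39.9-fold lower). All primed libraries lay above all NHSM-v libraries for these 5 genes, as for 26.7% of all genes tested. SOX2, which is also a regulator of neural progenitors, was the exception in size. It was at 104, 96.5, and 95.8 CPM in NHSM-v cells and at 209 to 329 CPM with a median of 259 in primed cells, a log2 fold change of -1.45 ± 0.15 (edgeR adjusted p = 8.62e-07). LIN28B (-3.84 ± 0.18), L1TD1 (-4.43 ± 0.09), and SALL4 (-4.87 ± 0.19) fell by less than the OCT4 gene and stayed detectable, with L1TD1 at 58.1 ± 3.4 against 1224 ± 86.8 CPM. UTF1 was low in primed cells already, at 0.218 to 5.18 CPM with a median of 2.06, and its counts were lower in NHSM-v cells by a ratio of 33.3 (95% interval 9.04 to 277). The remaining members, TRIM71 (-7.19 ± 0.33), LIN28A (-8.79 ± 0.22), DPPA4 (-9.41 ± 0.30), and TDGF1 (-9.51 ± 0.28), fell as well. How reads shared with pseudogenes or paralogs were counted is not given in the sources used here. The call was lost for UTF1 with low counts raised to 20 (edgeR adjusted p of 0.318). On the log2 scale the change became -10.56 for DPPA4 without NHSM-v library 2 and -10.84 for TDGF1 without NHSM-v library 2.

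The markers therefore go against the label of naive ESCs, and the cells are called by their medium. Of the 16 genes of naive pluripotency found in the tables, 9 were too low in both groups to be tested, with at most 40 counts in any library. These include KLF17, at 0 in all 9 libraries, TFCP2L1, ESRRB, DPPA3, and DPPA5. Of the 7 tested, 3 rose, 3 fell, and KLF4 did not pass. TFAP2C, a factor of naive pluripotency that also acts in trophoblast and in ectoderm, rose from 7.42 to 38.8 CPM with a median of 13.9 in primed libraries to 76.5, 74.4, and 68.9 CPM, by 1.95 ± 0.35 (edgeR adjusted p = 0.000185). KLF5 rose by 1.74 ± 0.48 to 23.2, 36.9, and 33.2 CPM, and SUSD2, a surface marker of human naive cells, by 2.0 ± 0.82 to no more than 8.35, 5.16, and 5.51 CPM. KLF4 was at 2.09, 5.47, and 3.1 CPM in NHSM-v cells and at 0 to 2.38 CPM with a median of 0.684 in primed cells, and the groups overlapped (2.10 ± 1.03, edgeR adjusted p = 0.092). TFE3 was at 50, 50.4, and 52.2 CPM against 63.4 to 87.9 CPM with a median of 76.2 and fell by 0.61 ± 0.13. NR5A2, which can replace OCT4 in reprogramming, was at 0 in NHSM-v cells against 31 to 45.1 CPM with a median of 35.9, at least 124-fold lower, and GDF3, a ligand of the Nodal type, was also at 0, at least 19.6-fold lower. No call was made for SUSD2 without NHSM-v library 1, 2, or 3 or primed library J2, K2, or K3 (edgeR adjusted p of up to 0.171, log2 fold change 1.78 to 2.13).

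Genes of the primed state fell on the whole but not uniformly. All 16 symbols were found, 15 passed the filter, 11 fell, 2 rose, and 2 did not pass, and the median was -1.52. VRTN had 1 count in 3 NHSM-v libraries and 90.2 to 128 CPM with a median of 108 in primed cells, a ratio of 3429 (95% interval 615 to 135451). SFRP2, a secreted Wnt modulator, fell by 5.48 ± 0.25 on the log2 scale. SALL1 fell by 4.64 ± 0.16, and USP44, a deubiquitinase of the mitotic checkpoint, fell by 4.52 ± 0.10. ZIC2 and SALL2, the primed regulators named above, fell. Under alternative processing their log2 fold changes lay between -0.79 and -0.70 and between -1.31 and -1.22. Some other genes of the list did not fall. THY1, the CD90 surface protein of primed ESCs and of neurons and fibroblasts, rose by 1.59 ± 0.13, from 59 to 92 CPM with a median of 69.5, to 220.4, 224, and 222 CPM. OTX2 was at 142, 134, and 157 CPM against 92.8 to 148 CPM with a median of 118 and did not pass (0.25 ± 0.13, edgeR adjusted p = 0.106), and neither did POU3F1 (0.52 ± 1.37), at 2.2, 0.405, and 0.775 CPM against 0 to 2.91 CPM with a median of 0.184.

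The enzymes that write and remove DNA methylation moved unevenly. DNMT3B, the de novo methyltransferase that is abundant in primed ESCs, fell from 2848 to 3306 CPM with a median of 3002, to 27.5, 21.3, and 27.5 CPM (-6.92 ± 0.11, edgeR adjusted p = 1.9e-15), and no called gene lost more CPM. DNMT3A, the other de novo enzyme, fell by 1.35 ± 0.09, to 136, 142, and 163 CPM. The maintenance enzyme DNMT1 did not pass, at 283, 291, and 305 CPM against 289 to 347 CPM with a median of 312 (-0.13 ± 0.08, edgeR adjusted p = 0.179), while its partner UHRF1 rose by 0.33 ± 0.10, to 249, 241, and 224 CPM. Among the TET dioxygenases, which oxidise methylcytosine, TET1 fell by 2.78 ± 0.15, TET2 rose by 2.47 ± 0.19, and TET3 did not pass (0.36 ± 0.19, edgeR adjusted p = 0.121). TET1 was the more abundant of the first pair in primed cells, at 163 to 255 CPM with a median of 209.6, and TET2 in NHSM-v cells, at 103, 114, and 98.4 CPM against 34.3, 27, and 34.5 CPM for TET1, as counts that are not corrected for gene length. DNMT3L was not tested, with at most 0.519 CPM in any library.

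**Figure D2:**
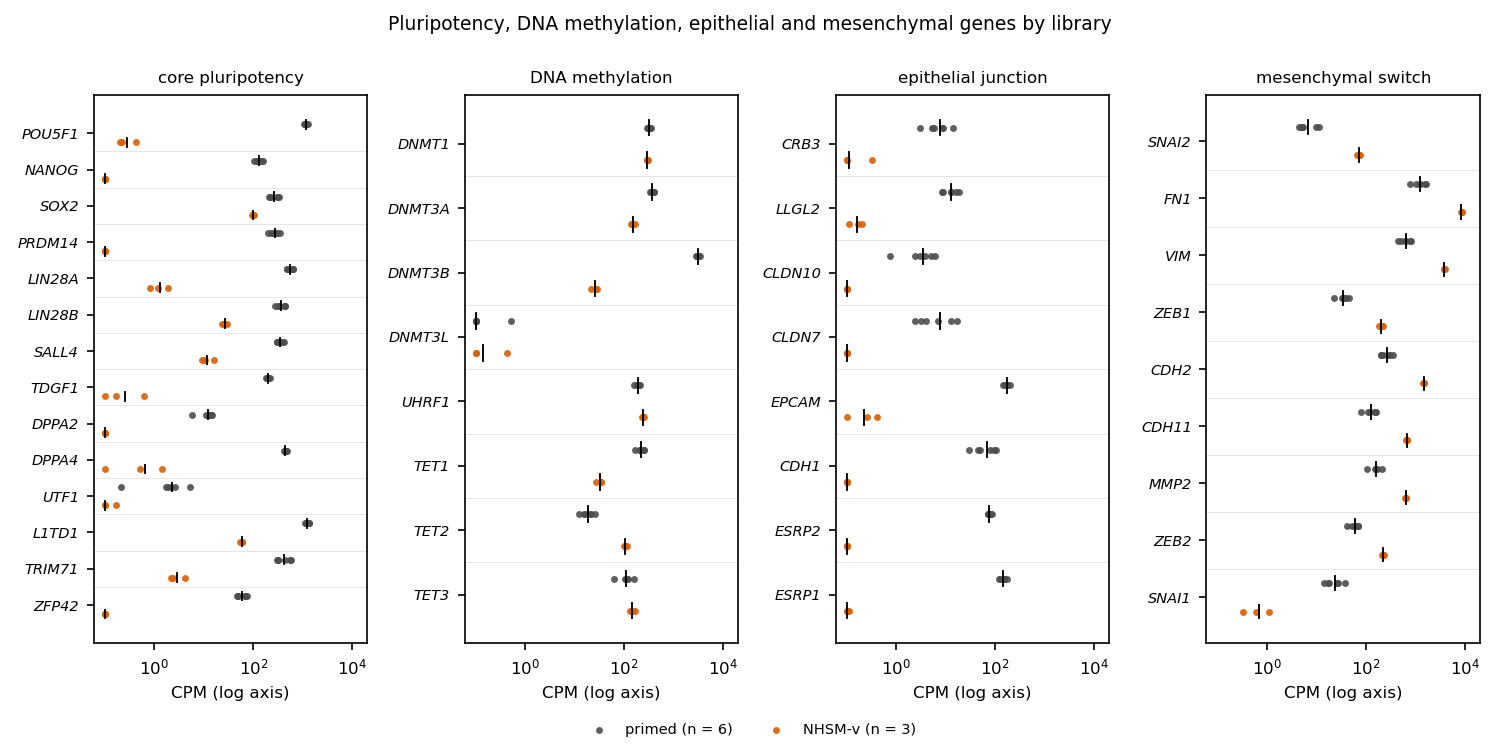
Level in each primed (grey, n = 6) and NHSM-v library (orange, n = 3) of the core pluripotency and DNA methylation genes and of up to 8 called genes of largest change in each direction among epithelial and mesenchymal genes, in CPM on a log axis, with values below 0.1 CPM drawn at 0.1 and a bar at each mean. The libraries of both groups stand apart for all core pluripotency genes, as they do for 55.7% of all genes tested, and DNMT3B falls from 3024 to 25.4 CPM on average.

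Most tested epithelial genes fell as well. Of 20 symbols 18 were found and 15 passed the filter. Of these 12 fell, where 30.6% of all genes tested did, none rose, and 3 did not pass. The median was -6.09 (-4.70 with bounds), and it was -1.96 with every count under 20 raised to 20. The summed level of the list was between 452 and 456 CPM in NHSM-v libraries and between 1096 and 1377 CPM in primed libraries. CDH1, the E-cadherin of adherens junctions, had 1 count over the 3 NHSM-v libraries and 29.6 to 106 CPM with a median of 64.5 in primed libraries, a ratio of 1908 (95% interval 342 to 75368). The J libraries had from 78.7 to 106 CPM of CDH1 and the K libraries from 29.6 to 50.2, so the primed libraries themselves fell into separate ranges. EPCAM, a surface marker of epithelia and of ESCs, was at 0, 0.405, and 0.258 CPM against 142 to 202 CPM with a median of 172 (-9.50 ± 0.29, edgeR adjusted p = 1.37e-12). The splicing factors ESRP1 and ESRP2, which set the epithelial form of many transcripts, had 1 count each in all 3 NHSM-v libraries together, with ratios of 4374 (95% interval 785 to 172797) and 2320.3 (95% interval 416 to 91665). CLDN7, a tight junction claudin, was at 0 against 2.42 to 16.7 CPM with a median of 5.46, at least 26-fold lower. CLDN6 fell by only -0.44 ± 0.07 and stayed at 356, 349, and 342 CPM. OVOL1 (-0.54 ± 1.36) and TJP3 (-1.05 ± 0.76) were among those that did not pass. The fitted log2 change turned to -10.12 for EPCAM without NHSM-v library 2.

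Mesenchymal genes moved the other way. All 12 symbols of the mesenchymal switch list were tested, 10 rose, 1 fell, and 1 did not pass, with a median of 2.16. SNAI2, a repressor of CDH1, rose by 3.39 ± 0.27, from 4.35 to 11.1 CPM with a median of 5.2, to 71.9, 65.8, and 76.2 CPM. Vimentin (VIM) rose by 2.55 ± 0.15, to 3760.1, 3825, and 3767 CPM, and ZEB1, another repressor of epithelial genes, by 2.51 ± 0.16. SNAI1, the relative of SNAI2, fell instead, from 14.4 to 37.2 CPM with a median of 21.7, to 0.329, 1.11, and 0.603 CPM (-5.09 ± 0.47, edgeR adjusted p = 2.47e-07). N-cadherin (CDH2), which replaces CDH1 in mesenchyme and in the neural plate alike, rose from 195 to 348 CPM with a median of 257, to 1491, 1479, and 1426 CPM. TWIST1 did not pass (1.04 ± 0.66). Primed libraries J3 and K1, at 12.5 and 9.55 CPM, overlapped the NHSM-v libraries at 11.9, 9.51, and 9.22 CPM.

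Collagens and other matrix genes rose in NHSM-v cells. On the fibroblast and mesenchyme list 17 of 18 symbols were found, all passed the filter, 15 rose, none fell, and the median was 2.74 (2.58 with bounds). The summed level of the list was between 28009 and 28242 CPM in NHSM-v libraries and between 3512 and 5694 CPM in primed libraries. COL6A3 and COL6A1, chains of type VI collagen, rose by 5.38 ± 0.20 and 5.13 ± 0.17, the former from 14.7 to 41.7 CPM with a median of 28.7, to 1242, 1141, and 1357 CPM. LUM and DCN, matrix proteoglycans, were at 0 in all primed libraries and reached 9, 8, and 10.4 CPM and 2.2, 1.62, and 1.46 CPM in NHSM-v cells, at least 31-fold and 5.96-fold higher. PDGFRB (0.17 ± 0.17) and TWIST2 (0.36 ± 0.54) did not pass. ACTA2, the smooth muscle actin of contractile cells, rose from 28.8 to 47.9 CPM with a median of 43.5, to 1362, 1347, and 1423 CPM. The part that other cells in the cultures might have in these levels was not tested. The test gave no call for DCN with low counts raised to 20 (edgeR adjusted p of 0.972).

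Most tested genes of the early neural plate and of its dorsal side rose, some of them from near absence. All 28 symbols of the neural progenitor list were found and 26 passed the filter. Of these 20 rose, where 28% of all genes tested did, 3 fell, and 3 did not pass, with a median of 4.07. The summed level of the list went from between 95.9 and 134 CPM in primed libraries to between 1693 and 1788 CPM. ZIC4, a dorsal neural zinc-finger factor, had 2 counts in all over the 6 primed libraries and 197, 202, and 224 CPM in NHSM-v cells, a ratio of 6716 (95% interval 1858 to 55466). SOX1, which marks committed neural progenitors, was at 41.8, 41.2, and 38.8 CPM and had a ratio of 1302 (95% interval 359.7 to 10764). ZIC1, the neighbour of ZIC4 in the genome and like it a dorsal factor, was at 346, 322, and 346 CPM against 0 to 1.99 CPM with a median of 0.689 (8.70 ± 0.31, edgeR adjusted p = 6.98e-12). The libraries of both groups did not overlap for any of these 3 genes, and all NHSM-v libraries were above for 28.9% of all genes tested. MSX2, a homeobox gene of the dorsal neural tube and of mesenchyme, rose by 8.81 ± 0.61, to 40, 52.8, and 53.4 CPM. EN2, of the midbrain and hindbrain boundary, was at 0 in primed cells and at 4.06, 8.1, and 7.93 CPM, at least 22.7-fold higher. PAX3, LMX1A, LMX1B, and MSX1, all of dorsal neural tissue, rose by 6.77 ± 0.44, 5.44 ± 1.07, 4.94 ± 0.83, and 4.86 ± 1.02. These genes were picked after their values were seen. PAX7, also on the list, had no counts in NHSM-v cells and was too low to be tested. SOX3 (-3.27 ± 1.30) and GBX2 (-2.38 ± 0.73) were among the genes that fell. LHX2 (2.51 ± 1.21), LHX9 (0.91 ± 0.55), and IRX3 (0.12 ± 0.51) did not pass. The call did not hold for SOX3 without NHSM-v library 1, 2, or 3 or primed library J1, J2, K2, or K3 (edgeR adjusted p of up to 0.121, log2 fold change -3.99 to -2.65). A left-out library moved the log2 fold change to 9.35 for ZIC1 without primed library K1, 12.04 for MSX2 without primed library J1, 8.51 for LMX1A without primed library K3, and 6.13 for LMX1B without primed library J3. The log2 value was 6.23 for MSX1 without primed library K3.

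Structural genes of neural progenitors and radial glia mostly rose as well. Of 15 symbols 14 passed the filter, 12 rose, and 2 fell, with a median of 2.43. GLI3, the repressor form of which patterns the dorsal neural tube, rose from 18.2 to 45.7 CPM with a median of 34.6, to 335, 341, and 349 CPM (3.29 ± 0.19). CRB2 rose by 3.08 ± 0.39, PTN by 3.08 ± 0.10, and NCAM1, a cell adhesion protein of the neural plate, by 2.88 ± 0.09, to 777, 713, and 775 CPM. Nestin (NES), an intermediate filament of neural progenitors that primed cells also express, fell a little, from 2149 to 2499 CPM with a median of 2413, to 1893, 1915, and 1911 CPM (-0.34 ± 0.05, edgeR adjusted p = 6.84e-05). PROM1, the CD133 surface protein, fell by 1.66 ± 0.10. HES5, a Notch target of neural progenitors, was too low to be tested.

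Proneural factors, which start neuronal differentiation, were at or near 0 in primed cells and low to moderate in NHSM-v cells. All 20 symbols were found, but only 11 passed the filter. Of these 8 rose and 3 did not pass, and the median was 5.07 (4.87 with bounds). Of all 20, 10 were at 0 in every primed library. A gene at or near 0 in primed cells could pass the filter only through NHSM-v cells, and so could only rise. With every count under 20 raised to 20 the median was 1.39. With at least 10 counts required in every library, 2 genes were tested and 1 rose. INSM1, a zinc-finger factor of newborn neurons and endocrine cells, was at 40.4, 37.9, and 35.1 CPM in NHSM-v cells and at 0 in every primed library, at least 128-fold higher. NEUROD4 and NEUROD1, also at 0 in primed cells, were at 11.9, 12.9, and 8.61 CPM and 3.84, 7.69, and 1.55 CPM, at least 37.6-fold and 14.8-fold higher. NHLH2 rose by 5.57 ± 1.11. ATOH1 and NEUROD6 were at 0 in all 9 libraries. MYT1 (1.54 ± 1.15), EBF3 (0.60 ± 0.50), and EBF2 (-0.06 ± 0.84) did not pass. Leaving out 1 library gave a log2 value of 8.0 for NHLH2 without primed library K3. The bound for NEUROD1 was 9.13-fold without NHSM-v library 2.

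Neuronal genes rose as well. All 20 on the list were tested, 14 rose, 3 fell, and 3 did not pass, with a median of 2.72. DCC, the netrin receptor of commissural axons, had 164, 158, and 159 CPM in NHSM-v cells and a ratio of 3435 (95% interval 1175 to 16663) over primed cells. SCG2, a granin of secretory vesicles, was at 25.1, 16.3, and 20.8 CPM and at 0 in primed cells, at least 70.3-fold higher. ELAVL3, a neuronal RNA-binding protein, rose by 6.35 ± 0.69 and the neurofilament gene NEFL by 5.43 ± 0.17, from 3.35 to 6.75 CPM with a median of 4.2, to 210.2, 217, and 187 CPM. The vesicle genes CHGB (-2.94 ± 0.26), CHGA (-2.15 ± 0.47), and SYT1 (-0.73 ± 0.12) fell. SNAP25 (1.90 ± 1.09), a synaptic protein, RTN1 (-0.35 ± 0.23), and GNG3 (-0.68 ± 0.41) did not pass. SNAP25 was at only 4.72, 3.14, and 4.57 CPM. On the log2 scale the change became 7.62 for ELAVL3 without primed library K3.

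Axon guidance ligands and receptors, which steer growing axons and migrating cells, mostly rose. Of 35 symbols 34 passed the filter, 24 rose, 7 fell, and 3 did not pass, with a median of 1.88. Beside DCC, SLIT1, a midline repellent, rose from 0 to 0.842 CPM with a median of 0.204, to 281, 255, and 283 CPM (9.63 ± 0.28, edgeR adjusted p = 9.41e-13). The ephrin receptor EPHB1 rose by 7.36 ± 0.45 and PLXNA4, a semaphorin receptor, by 6.26 ± 0.46, to 157, 170, and 169.5 CPM and 143, 149, and 161 CPM. NTN4 (-2.88 ± 0.21), SEMA3F (-2.10 ± 0.21), UNC5D (-1.84 ± 0.17), and SEMA5B (-1.76 ± 0.20) fell most. EFNB1 (0.14 ± 0.19), EPHA3 (-0.07 ± 0.31), and ROBO2 (-0.16 ± 0.16) did not pass. DCC and UNC5D, both netrin receptors, thus moved in opposite directions. The fitted log2 change turned to 8.07 for EPHB1 without primed library J1.

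Neural crest regulators were split. The list had 14 symbols, 13 passed the filter, 5 rose (38.5%), 3 fell (23.1%), and 5 did not pass, and the median of 0.37 was small. Of all genes tested, 28% rose and 30.6% fell. TFAP2B rose by 5.15 ± 0.87, to 33.9, 30.4, and 34.3 CPM, SNAI2 rose as above, TFAP2A by 2.59 ± 0.44, CDH6 by 1.51 ± 0.09, and ETS1 by 0.33 ± 0.13. FOXD3, which is needed both for pluripotency and for crest specification, fell by 5.35 ± 0.49, from 17 to 40.3 CPM with a median of 28.2, to 0.11, 0.506, and 1.38 CPM. ERBB3 (-3.96 ± 0.31), of the glial branch of the crest, fell too. SOX10, the defining factor of migrating crest, was at 0.659, 0.405, and 0.345 CPM in NHSM-v cells and did not pass (-1.65 ± 1.45, edgeR adjusted p = 0.348). SOX8 (2.77 ± 1.34), TWIST1, MITF (0.37 ± 0.54), and NGFR (-1.81 ± 0.83) did not pass either. The call was lost for ETS1 without NHSM-v library 2 or 3 or against the J libraries alone or with library totals only or with upper-quartile normalisation (edgeR adjusted p of up to 0.19, log2 fold change 0.26 to 0.37). A left-out library moved the log2 fold change to 6.32 for TFAP2B without primed library J1 and -6.46 for FOXD3 without NHSM-v library 3.

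Of the HOX genes, which set position along the body axis, 4 rose (19% of those tested), where 28% of all genes tested did. Of 39 symbols 38 were found and 21 passed the filter, none fell, and 17 did not pass. HOXA2, which is active in the hindbrain, rose from 0 to 0.603 CPM with a median of 0, to 48.5, 40.8, and 43.8 CPM (8.07 ± 0.59, edgeR adjusted p = 1.73e-08). HOXA3 rose by 4.89 ± 1.16, HOXB2 by 2.97 ± 0.31, and HOXC6 by 1.28 ± 0.45, to 8.24, 18.3, and 14.3 CPM. The summed level of all 38 genes was between 140.2 and 149 CPM in NHSM-v libraries and between 25.3 and 57.1 CPM in primed libraries. No call was made for HOXC6 without NHSM-v library 2 or 3 or against the J libraries alone (edgeR adjusted p of up to 0.144, log2 fold change 0.87 to 1.25). The log2 value was 10.41 for HOXA2 without primed library K2 and 5.90 for HOXA3 without primed library K2.

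Genes of mesoderm, endoderm, and trophoblast moved both ways, and many were too low to be tested. Among 17 mesoderm symbols, 11 passed the filter, 1 rose, 3 fell (27.3%, where 30.6% of all genes tested did), and 7 did not pass. MEOX1 rose by 3.31 ± 1.27, to 5.05, 7.39, and 3.27 CPM, while EOMES (-3.72 ± 0.61) and MIXL1 (-2.90 ± 0.68), factors of the primitive streak, fell from 5.81 to 15.6 CPM with a median of 8.3 and 3.28 to 17.6 CPM with a median of 9.81. TCF15 was at 0 in NHSM-v cells, at least 8.05-fold lower. Among 13 endoderm symbols, 8 passed, 1 rose, 5 fell (62.5%), and 2 did not pass. AFP, FOXA2, APOA1, FOXA3, and CER1 fell. AFP was at 0 to 13.5 CPM with a median of 10.4 in primed cells and at 0 in NHSM-v cells, at least 29.5-fold lower. FOXA3 fell by 5.05 ± 0.71. FOXA2 was at 0 and at least 8.24-fold lower, APOA1 fell by 5.88 ± 0.59, and CER1, an inhibitor of Nodal, fell by 2.74 ± 1.10, but its log2 fold change was -3.65 against the J libraries alone and 0.78 against the K libraries alone, where the call was lost. GATA6 (-0.30 ± 1.54) and GATA4 (-0.53 ± 1.55) did not pass. The endoderm gene that rose, CXCR4, is a chemokine receptor that many cell types carry. It was at 70.1, 64.9, and 59 CPM against 0 to 11.5 CPM with a median of 0.447 (4.84 ± 0.86, edgeR adjusted p = 0.000184). For trophoblast and amnion, 6 of 15 symbols passed, 2 rose (TFAP2A and TFAP2C, as above), 2 fell, and KRT7 (-0.77 ± 0.74) and GATA3 (-1.24 ± 1.72) did not pass. VTCN1 was at 0 against 101 to 140.2 CPM with a median of 108, at least 382-fold lower, and TEAD4 fell by 2.47 ± 0.19. CDX2, CGA, and ELF5 were at 0 in all 9 libraries. The test gave no call for MEOX1 without NHSM-v library 1, 2, or 3 or primed library K2 (edgeR adjusted p of up to 0.136, log2 fold change 3.0 to 3.58) and for TCF15 with low counts raised to 20 (edgeR adjusted p of 0.317). The call did not hold for FOXA2 with low counts raised to 20 (edgeR adjusted p of 0.271) and for CER1 without NHSM-v library 1, 2, or 3 or primed library J1, J2, or J3 (edgeR adjusted p of up to 0.134, log2 fold change -2.90 to -2.07). Leaving out 1 library gave a log2 value of 5.10 for MEOX1 without primed library K3, -4.41 for EOMES without NHSM-v library 3, -3.61 for MIXL1 without NHSM-v library 3, and -7.03 for FOXA3 without NHSM-v library 1. On the log2 scale the change became -6.87 for APOA1 without NHSM-v library 1 and 6.55 for CXCR4 without primed library J3.

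Of 12 blood and endothelium symbols, 7 passed the filter. RUNX1, a factor of blood formation that some sensory neurons and mesenchymal cells also use, rose from 2.68 to 7.73 CPM with a median of 4.88, to 245, 245, and 288 CPM (5.65 ± 0.24, edgeR adjusted p = 5.99e-11). The leukocyte gene PTPRC was at 0 in all libraries, and the endothelial genes PECAM1 (-4.06 ± 1.43), CDH5 (-3.88 ± 0.82), and VWF (-3.16 ± 1.01) fell. CD34 (0.55 ± 1.09), KDR (-0.19 ± 0.16), and TEK (-0.72 ± 0.61) did not pass. Of the muscle list, 4 of 11 symbols passed, DES (-2.43 ± 0.14) and ACTC1 (-1.33 ± 0.16) fell, and TTN (1.73 ± 0.88) and TNNT2 (-2.07 ± 1.24) did not pass. MAEL, at 4.28, 1.01, and 0.603 CPM, was the only germ cell gene of 8 to be tested, and it did not pass (1.63 ± 1.40). The call was lost for PECAM1 without NHSM-v library 1 or 3 or with low counts raised to 20 (edgeR adjusted p of up to 0.107, log2 fold change -4.10 to -0.75) and for VWF without NHSM-v library 1 (edgeR adjusted p of 0.05003, log2 fold change -3.06). The fitted log2 change turned to -4.79 for PECAM1 without NHSM-v library 2, -4.57 for CDH5 without NHSM-v library 3, and -2.30 for VWF without primed library J3.

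**Figure D3:**
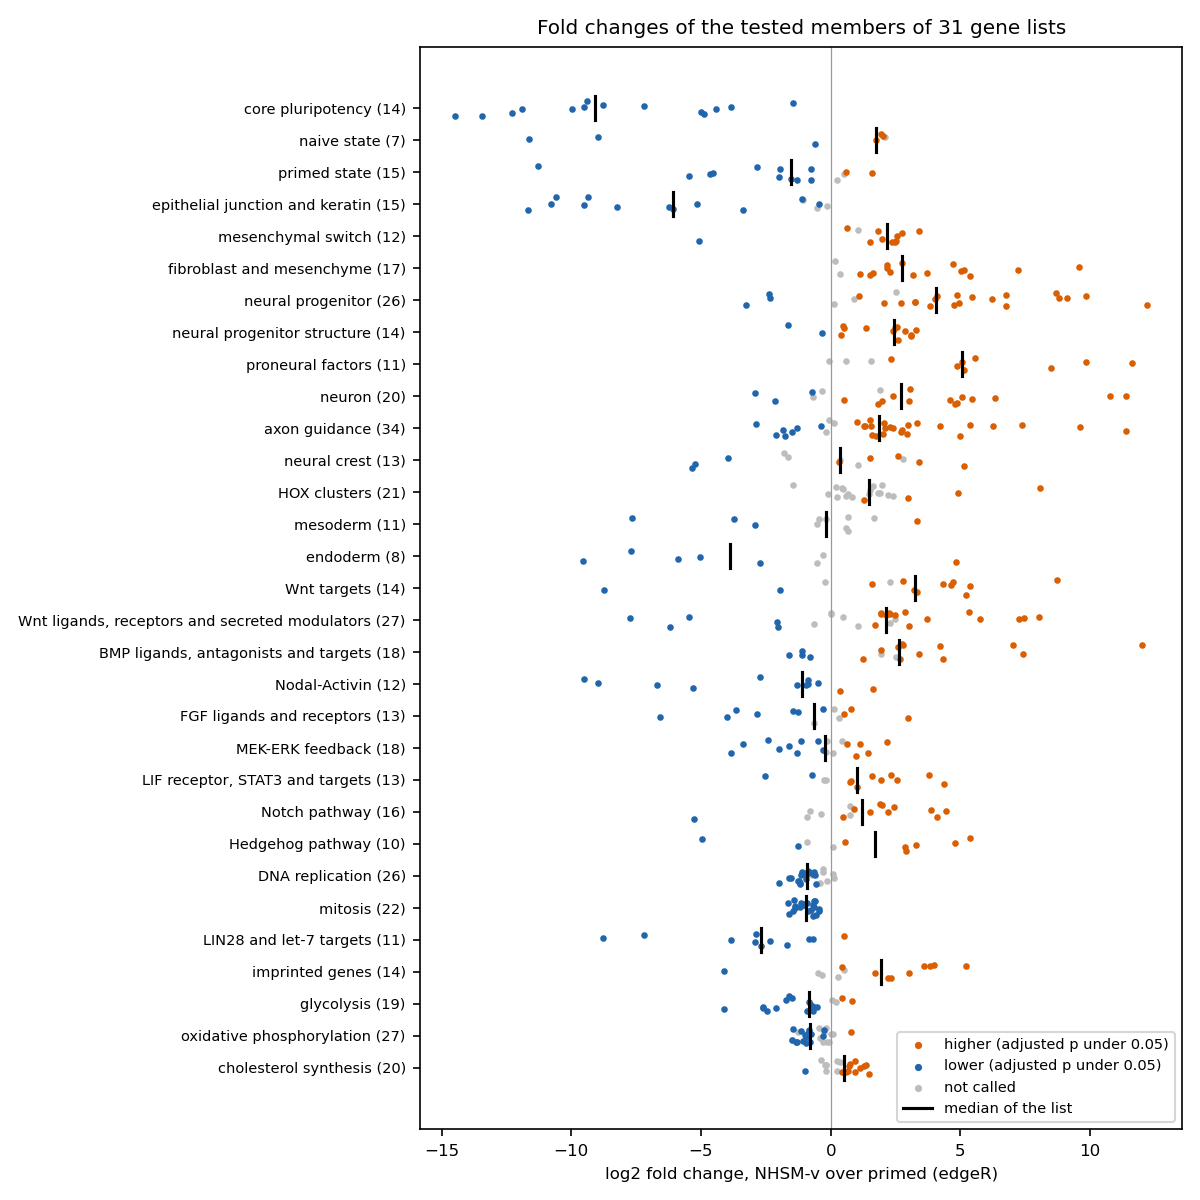
Log2 fold change of NHSM-v over primed cells for each tested member of 31 gene lists (horizontal axis; number of tested members in parentheses), with the list median as a bar; orange members were higher, blue members lower, and grey members not called by edgeR at an adjusted p under 0.05. The core pluripotency and epithelial lists lie on the left, with medians of -9.10 and -6.09, and the proneural and neural progenitor lists on the right, with medians of 5.07 and 4.07.

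Wnt signalling works through secreted ligands, Frizzled receptors, and beta-catenin, which activates TCF/LEF factors on target genes, some of which feed back on the pathway. In NHSM-v cells most such targets rose. Of 18 symbols 16 were found and 14 passed the filter, 10 rose, 2 fell, and 2 did not pass, with a median of 3.26. LEF1, a factor of the pathway and a target of it, was at 0 in 5 of 6 primed libraries and reached 71.6, 78.2, and 67.7 CPM in NHSM-v cells (8.73 ± 0.57, edgeR adjusted p = 5.46e-09). AXIN2, the scaffold that limits beta-catenin, rose from 4.34 to 10.3 CPM with a median of 6.57, to 263, 253, and 267 CPM (5.21 ± 0.17), and NKD1, another inhibitor, from 1.96 to 3.99 CPM with a median of 2.47, to 102, 112, and 122 CPM (5.35 ± 0.21). SP5 rose by 4.73 ± 1.16, to 6.37, 4.45, and 10.6 CPM. The libraries did not overlap for any of these 4 genes, which was so in this direction for 28.9% of all genes tested. SP8 was at 0 in NHSM-v cells against 1.63 to 10.2 CPM with a median of 4.67, at least 16.8-fold lower, and FZD7, a receptor that is abundant in ESCs, fell by 1.95 ± 0.17, from 383 to 651 CPM with a median of 481, to 159.6, 114, and 123 CPM. DKK1 (2.30 ± 1.43) and TCF7 (-0.23 ± 0.30) did not pass. A left-out library moved the log2 fold change to 12.57 for LEF1 without primed library K3 and 7.21 for SP5 without primed library J2.

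Among the components themselves, all 32 symbols of ligands, receptors, and secreted modulators were found and 27 passed. Of these 15 rose, 5 fell, and 7 did not pass, with a median of 2.11. The ligands of the dorsal neural tube WNT1 and WNT3A rose, WNT1 by 5.74 ± 0.88 to 19.3, 20.4, and 24.7 CPM and WNT3A to 8.13, 8.6, and 6.46 CPM with a ratio of 246 (95% interval 67.4 to 2044). WNT9A rose by 7.25 ± 0.47, from 0 to 0.913 CPM with a median of 0.391, to 50.3, 70.4, and 60 CPM. RSPO2, an R-spondin that amplifies Wnt signals, was at 0 in primed cells and at 1.1, 5.67, and 2.58 CPM, at least 10.6-fold higher. The 5 that fell included the modulators SFRP1 and SFRP2 and the receptors FZD5, ROR1, and, among inhibitors, WIF1. SFRP1 fell from 278 to 402 CPM with a median of 324, to 1.76, 0.911, and 1.98 CPM (-7.74 ± 0.23, edgeR adjusted p = 1.18e-12) and FZD5 from 228 to 394 CPM with a median of 296, to 6.92, 2.02, and 3.79 CPM (-6.19 ± 0.32). ROR1 fell by 2.05 ± 0.14 and WIF1 fell by 2.04 ± 0.50. The log2 value was 6.68 for WNT1 without primed library J2, 6.33 for WNT1 without primed library K3, and 7.85 for WNT9A without primed library K1. The bound for RSPO2 was 6.23-fold without NHSM-v library 2.

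BMP signals act through SMAD1, SMAD5, and SMAD9, and the ID genes are among their direct targets. Of the 18 symbols, all tested, 12 rose, 4 fell, and 2 did not pass, with a median of 2.65. BMP5 was at 0 in all primed libraries and at 45.7, 51.9, and 48.9 CPM in NHSM-v cells, at least 165-fold higher. BMP6 rose from 0 to 1.89 CPM with a median of 0.368, to 99.9, 123, and 113 CPM (7.43 ± 0.51, edgeR adjusted p = 1.03e-08) and GDF6, of the same family, by 7.02 ± 0.87, to 21.5, 18, and 20 CPM. The antagonist NOG rose by 4.33 ± 1.23, to 6.81, 2.43, and 4.91 CPM. ID4 (-1.59 ± 0.52), ID3 (-1.09 ± 0.20), and ID1 (-0.79 ± 0.20) fell, and ID2 rose by 1.26 ± 0.21. BMP4 fell by 1.12 ± 0.36, from 13.2 to 33.2 CPM with a median of 16.4, to 5.16, 13.4, and 9.05 CPM. GDF7 (2.53 ± 1.15) and CHRD (1.94 ± 0.92) did not pass. No call was made for ID4 without NHSM-v library 1 or against the J libraries alone (edgeR adjusted p of up to 0.498, log2 fold change -1.47 to -0.48) and for BMP4 without NHSM-v library 1 or 3 or against the J libraries alone (edgeR adjusted p of up to 0.175, log2 fold change -1.09 to -0.64). Leaving out 1 library gave a log2 value of 8.11 for BMP6 without primed library J2, 10.70 for GDF6 without primed library K3, and 6.09 for NOG without primed library K2.

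Genes of the Nodal and Activin pathway, which maintains primed pluripotency through SMAD2 and SMAD3, mostly fell. Of 14 symbols 12 were found, all passed the filter, 10 fell, and 2 rose. TDGF1, the co-receptor of Nodal, fell from 177 to 214 CPM with a median of 194, to 0, 0.607, and 0.172 CPM (-9.51 ± 0.28, edgeR adjusted p = 1.18e-12). The nuclear partner FOXH1 was at 0.549, 0.607, and 0.0861 CPM against 38.1 to 50 CPM with a median of 39.3 (-6.69 ± 0.36), and the ligand NODAL at 2.96, 0, and 0 CPM against 21.6 to 55.6 CPM with a median of 35.6 (-5.32 ± 0.76). NODAL was thus counted in 1 of 3 NHSM-v libraries only. INHBA, which encodes the subunit of Activin A, rose by 1.62 ± 0.19, from 34.4 to 80.8 CPM with a median of 53.2, to 179, 161, and 168 CPM, and the receptor ACVR1B by 0.36 ± 0.12. The test gave no call for ACVR1B without NHSM-v library 1 or 2 (edgeR adjusted p of up to 0.0625, log2 fold change 0.36 to 0.37). On the log2 scale the change became -11.61 for NODAL without NHSM-v library 1 and -4.65 for NODAL without NHSM-v library 3.

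FGF ligands and receptors fell more often than they rose. Of 18 symbols 13 passed the filter, 3 rose, 7 fell, and 3 did not pass, with a median of -0.63. FGF2, the factor on which primed ESCs depend in culture, fell from 102 to 269 CPM with a median of 196, to 24, 33.2, and 24.2 CPM (-2.86 ± 0.27, edgeR adjusted p = 3.13e-07). FGF19 (-6.58 ± 0.42), FGF8 (-4.0 ± 0.68), and the receptor FGFR4 (-3.65 ± 0.41) fell by more, from lower levels. FGF18 (2.97 ± 1.23), FGFR2 (0.80 ± 0.13), and FGF12 (0.50 ± 0.17) rose. FGF13 (-0.63 ± 0.29), FGF9 (0.31 ± 1.31), and FGF1 (0.11 ± 0.63) did not pass. The call did not hold for FGF18 without NHSM-v library 1, 2, or 3 or primed library J1, J2, or K3 or against the K libraries alone or with library totals only or with no filter on low counts (edgeR adjusted p of up to 0.148, log2 fold change 2.11 to 3.21) and for FGF12 without NHSM-v library 3 (edgeR adjusted p of 0.0786, log2 fold change 0.45). The fitted log2 change turned to -7.17 for FGF19 without NHSM-v library 1 and 3.77 for FGF18 without primed library K1.

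Genes that report on MEK-ERK activity, the kinase cascade below FGF receptors, were divided. All 18 were tested, 5 rose, 9 fell, and 4 did not pass, with a median of -0.23. The immediate early genes fell most, FOS from 54 to 78.3 CPM with a median of 64, to 4.61, 4.05, and 5.17 CPM (-3.85 ± 0.20) and EGR1 from 1081 to 1727 CPM with a median of 1448, to 128, 138, and 153 CPM (-3.37 ± 0.15, edgeR adjusted p = 9.67e-11). The ERK phosphatase DUSP5 (-2.40 ± 0.17) and the ETS factor ETV1 (-2.0 ± 0.17) fell too. IER3 (2.16 ± 0.36), CCND1 (1.43 ± 0.16), SPRED3 (1.11 ± 0.28), DUSP4 (0.98 ± 0.29), and ETV5 rose, ETV5 by 0.64 ± 0.16. SPRY1 (0.44 ± 0.19), PHLDA1 (0.10 ± 0.14), SPRED2 (-0.13 ± 0.15), and FOSL1 (-0.18 ± 0.49) did not pass.

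LIF acts through its receptor LIFR, the shared subunit IL6ST, JAK kinases, and STAT3. Of 14 symbols 13 were tested, 9 rose, 2 fell, and 2 did not pass, with a median of 1.0. LIF itself was expressed by NHSM-v cells at 91.6, 99.5, and 99.8 CPM, against 3.82 to 12 CPM with a median of 6.39 in primed cells (3.78 ± 0.25, edgeR adjusted p = 6.41e-09). BCL3 rose by 4.38 ± 1.26 from almost none, to 2.86, 2.94, and 1.9 CPM, CISH by 2.57 ± 0.47, and IL6ST by 2.31 ± 0.21, to 326, 306, and 276 CPM. Direct targets moved apart. SOCS3, the feedback inhibitor of STAT3, did not pass, at 29.5, 35.2, and 37.6 CPM against 22.8 to 56 CPM with a median of 39.7 (-0.18 ± 0.25, edgeR adjusted p = 0.57), JAK2 did not either (-0.24 ± 0.27), and PIM1 (-2.55 ± 0.18) and JUNB (-0.71 ± 0.23) fell. STAT3 was at 544, 578, and 586 CPM against 97.7 to 209 CPM with a median of 145. Reads from the STAT3-ERT2 transgene and from the endogenous gene cannot be told apart in these counts. The call was lost for BCL3 with low counts raised to 20 (edgeR adjusted p of 0.25, log2 fold change 0.38) and for JUNB without NHSM-v library 1 or against the K libraries alone (edgeR adjusted p of up to 0.0926, log2 fold change -0.60 to -0.40). A left-out library moved the log2 fold change to 5.65 for BCL3 without primed library K3.

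**Figure D4:**
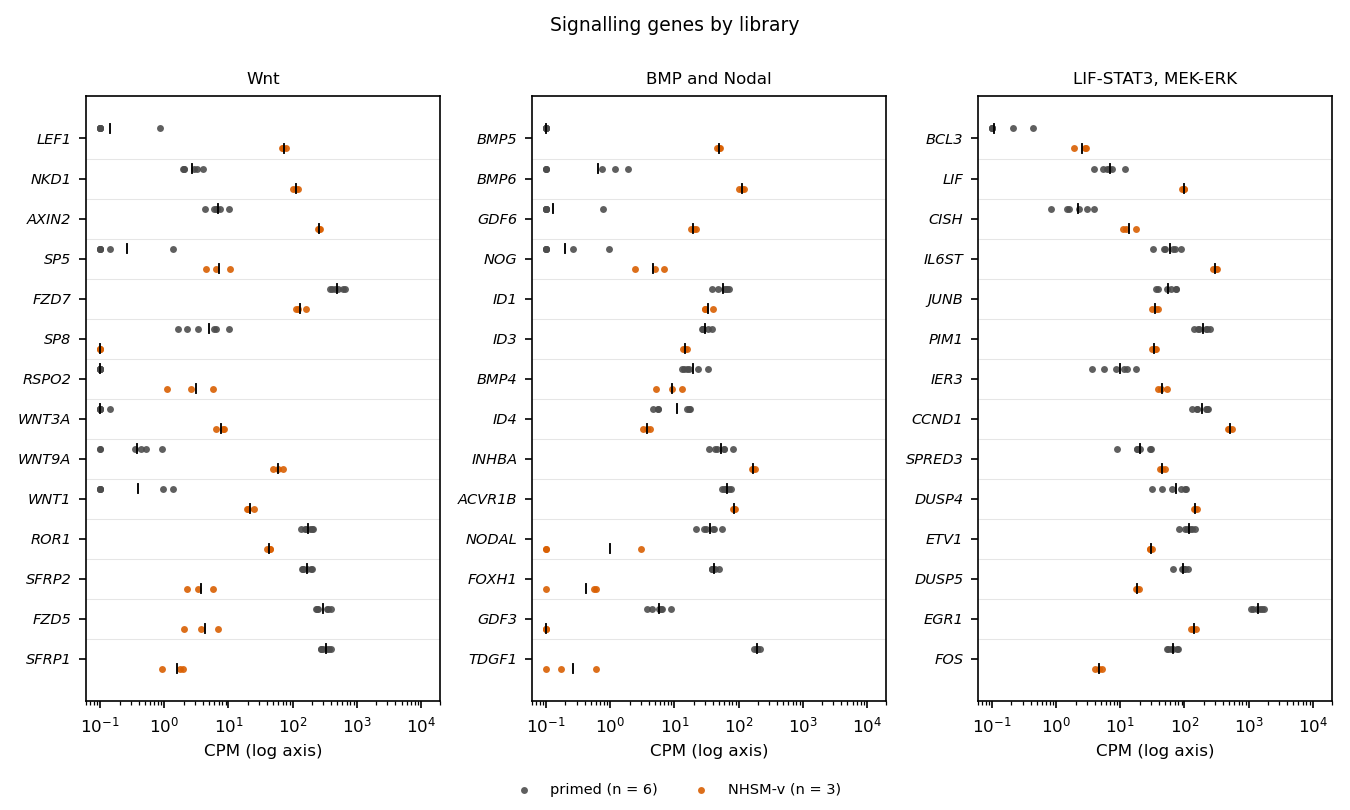
Level in each primed (grey, n = 6) and NHSM-v library (orange, n = 3) of the called genes of largest change in each direction, up to 4, in the Wnt, BMP, Nodal-Activin, LIF-STAT3, and MEK-ERK lists, in CPM on a log axis, with values below 0.1 CPM drawn at 0.1 and a bar at each mean. AXIN2 and BMP6 lie higher in all NHSM-v libraries than in any primed library, and SFRP1, TDGF1, and EGR1 lower.

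Notch pathway genes mostly rose. Of 19 symbols 16 passed the filter, 10 rose, 1 fell, and 5 did not pass, with a median of 1.20. DTX4 rose from 8.3 to 14 CPM with a median of 9.78, to 217, 242, and 235 CPM (4.44 ± 0.14, edgeR adjusted p = 2.31e-12). HES6 rose by 4.09 ± 0.66, the ligand DLL1 by 3.86 ± 0.62, to 19.8, 15.8, and 16.7 CPM, and the receptor NOTCH2 by 2.45 ± 0.11, to 690.1, 734, and 727 CPM. HEY2 fell by 5.26 ± 1.08, from 2.75 to 9.66 CPM with a median of 4.47. HEYL (0.74 ± 0.37), LFNG (0.74 ± 0.42), DLL3 (-0.39 ± 0.88), NRARP (-0.79 ± 1.08), and HEY1 (-0.90 ± 0.95) did not pass. The log2 value was 4.72 for HES6 without primed library J3 and -8.73 for HEY2 without NHSM-v library 3.

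Genes of the Hedgehog pathway moved both ways. Of 13 symbols 10 passed the filter, 6 rose, 2 fell, and 2 did not pass. BOC, a co-receptor, rose from 5.22 to 17.4 CPM with a median of 7.2, to 379, 356, and 357 CPM (5.38 ± 0.27, edgeR adjusted p = 2.42e-10), and CDON, another co-receptor, by 2.89 ± 0.10. HHIP rose by 4.79 ± 0.79 and GLI3 as above. GLI1 fell from 7.51 to 14.5 CPM with a median of 9.26, to 0.22, 0, and 0.689 CPM (-4.94 ± 0.71), and PTCH1, the receptor, fell by 1.25 ± 0.21. SMO (0.09 ± 0.11) did not pass, and the ligand SHH was too low to be tested. For retinoic acid, 12 of 17 symbols passed, 4 rose, 5 fell, and 3 did not pass. RXRG (3.44 ± 1.21), CRABP1 (2.83 ± 0.34), and RXRA (1.02 ± 0.25) were among those that rose. DHRS3 (-3.43 ± 0.60), RARG (-2.64 ± 0.23), STRA6 (-2.26 ± 0.41), RARB (-1.74 ± 0.44), and CRABP2 (-0.92 ± 0.17) fell. CYP26A1 (0.13 ± 0.23), RARA (0.13 ± 0.13), and RDH10 (0.12 ± 0.36) did not pass. No call was made for RXRG without NHSM-v library 2 or 3 or with DESeq2 (an adjusted p of up to 0.136, log2 fold change 3.09 to 3.58). Leaving out 1 library gave a log2 value of 5.54 for HHIP without primed library K3, -6.40 for GLI1 without NHSM-v library 3, and 4.40 for RXRG without primed library K1.

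Most genes of cell division and DNA replication fell. All 22 mitosis genes fell, between -1.65 and -0.44, with a median of -0.97. TTK, a kinase of the spindle checkpoint, fell from 104 to 138 CPM with a median of 126, to 37.2, 49.4, and 34.9 CPM (-1.65 ± 0.14, edgeR adjusted p = 1.11e-07), and KIF23 (-1.62 ± 0.09), UBE2C (-1.44 ± 0.11), and BUB1 (-1.40 ± 0.08) followed. Of 26 DNA replication genes, 19 fell, none rose, and 7 did not pass, with a median of -0.91. The origin factors ORC1 (-1.98 ± 0.13) and CDC6 (-1.63 ± 0.14) and the replicative helicase components GINS2 (-1.54 ± 0.24) and MCM2 (-1.25 ± 0.09) fell most. MCM2 was at 170.1, 156, and 179 CPM against 359 to 427 CPM with a median of 389. The summed level of the mitosis list was between 3650.2 and 3778 CPM in NHSM-v libraries and between 6553 and 7573 CPM in primed libraries.

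Regulators of the step from G1 into S phase changed in composition. Of 13 symbols 12 were tested, 5 rose, 3 fell, and 4 did not pass. CDK6 rose from 3.7 to 15.9 CPM with a median of 7.54, to 46.8, 47, and 53.8 CPM (2.52 ± 0.33, edgeR adjusted p = 1.02e-05), CCND3 by 1.58 ± 0.29, CCND1 by 1.43 ± 0.16, CCNE2 by 1.35 ± 0.27, and E2F2 by 1.32 ± 0.44. CCNE1 fell from 83 to 108 CPM with a median of 96.4, to 20.3, 19.7, and 14.8 CPM (-2.42 ± 0.15), CCND2 fell by 1.61 ± 0.13, and CCNA2 fell by 0.95 ± 0.10. Both the cyclin E and the cyclin D genes thus moved in both directions. E2F1 (0.41 ± 0.21), CDK2 (0.25 ± 0.12), CDK4 (-0.05 ± 0.11), and E2F3 (-0.19 ± 0.13) did not pass. Among CDK inhibitors and RB proteins, 9 of 10 symbols were tested, 4 rose, none fell, and 5 did not pass. CDKN1A, the p21 inhibitor, rose from 2.6 to 14.4 CPM with a median of 5.53, to 54.5, 53.4, and 57.9 CPM (3.01 ± 0.39, edgeR adjusted p = 8.05e-06), CDKN2B by 1.66 ± 0.67, RBL2 by 1.35 ± 0.16, and RBL1 by 0.68 ± 0.17. CDKN2C (2.13 ± 1.26), CDKN2D (1.66 ± 0.76), CDKN1B (0.37 ± 0.33), RB1 (0.02 ± 0.26), and CDKN1C (-0.32 ± 0.41) did not pass. The test gave no call for E2F2 without NHSM-v library 2 or against the J libraries alone (edgeR adjusted p of up to 0.0914, log2 fold change 0.91 to 1.19) and for CDKN2B without NHSM-v library 1, 2, or 3 or primed library J1, J2, K2, or K3 or against the K libraries alone (edgeR adjusted p of up to 0.109, log2 fold change 1.28 to 1.74). On the log2 scale the change became 2.34 for CDKN2B without primed library K1.

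The p53 targets, CDKN1A among them, moved both ways. Of 16 genes tested, 5 rose (31.25%), 4 fell (25%), and 7 did not pass, with a median of -0.05. These shares were near those of all genes tested, 28% and 30.6%. TP53INP1 (1.93 ± 0.23), BTG2 (1.13 ± 0.34), PLK2 (1.05 ± 0.27), and PHLDA3 (0.76 ± 0.24) rose with CDKN1A. SFN, the 14-3-3 sigma gene of epithelia, was at 0 against 10.6 to 26.5 CPM with a median of 17.4, at least 60.1-fold lower. CCNG1 (-1.87 ± 0.14), MDM2 (-0.57 ± 0.17), and AEN (-0.52 ± 0.21) fell. Of the BCL2 family, which controls the mitochondrial step of apoptosis, 15 of 17 genes were tested, 3 rose, 4 fell, and 8 did not pass. The shares that rose (20%) and fell (26.7%) were below those of all genes tested. The BH3-only genes BMF (1.97 ± 0.21), BCL2L11 (1.38 ± 0.16), and BAD (1.24 ± 0.28) rose. PMAIP1, another BH3-only gene, fell from 16.9 to 32.5 CPM with a median of 28.6, to 2.64, 3.64, and 5.86 CPM (-2.76 ± 0.31, edgeR adjusted p = 2.34e-06). BID (-1.11 ± 0.32), the protective MCL1 (-1.01 ± 0.11), and BAK1 (-0.56 ± 0.21) fell as well. Genes that promote apoptosis were thus found on both sides. The call did not hold for PHLDA3 without NHSM-v library 2 (edgeR adjusted p of 0.0566, log2 fold change 0.71) and for MDM2 against the J libraries alone (edgeR adjusted p of 0.0777, log2 fold change -0.32). The call was lost for AEN without NHSM-v library 1, 2, or 3 or primed library J1, J2, K1, K2, or K3 or against the J libraries alone or with DESeq2 or with at least 10 counts in every library or with low counts raised to 20 or with no filter on low counts (an adjusted p of up to 0.304, log2 fold change -0.61 to -0.29) and for BID against the J libraries alone (edgeR adjusted p of 0.0972, log2 fold change -0.83). No call was made for BAK1 without NHSM-v library 1, 2, or 3 or primed library J1, K2, or K3 or against the J or K libraries alone or with DESeq2 or with no filter on low counts (an adjusted p of up to 0.115, log2 fold change -0.63 to -0.44).

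LIN28A and LIN28B block the maturation of let-7 microRNAs, and their list fell nearly as a whole. All 11 genes were tested, 10 fell, and HMGA2 alone rose (0.52 ± 0.10, edgeR adjusted p = 0.000433). LIN28A was at 1.87, 0.81, and 1.21 CPM against 468 to 644 CPM with a median of 570.4, and TRIM71, a let-7 target, at 2.42, 4.15, and 2.15 CPM against 296 to 576 CPM with a median of 373. MYCN fell by 2.93 ± 0.19, and LIN28B from 272 to 439 CPM with a median of 372, to 23.5, 29.2, and 26 CPM. HMGA2, a chromatin protein and a known let-7 target too, stayed abundant, at 496, 525, and 521 CPM against 283 to 430.2 CPM with a median of 352.

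Imprinted genes, which are expressed from a single parental allele, mostly rose. Of 18 symbols 15 were found and 14 passed the filter, 9 rose, 1 fell, and 4 did not pass, with a median of 1.95. DLK1 rose from 0.134 to 2.94 CPM with a median of 1.21, to 46.6, 51.3, and 43.8 CPM (5.23 ± 0.47, edgeR adjusted p = 1.64e-07), IGF2 by 3.97 ± 1.17, to only 4.72, 3.64, and 2.58 CPM, PLAGL1 by 3.84 ± 0.27, and MEST by 3.61 ± 0.06, to 1849, 1719, and 1772 CPM. NNAT fell by 4.12 ± 0.96, to 4.17, 9.51, and 5.34 CPM. Its primed level was not uniform, from 180 to 225 CPM in the J libraries and from 15.0 to 20.2 CPM in the K libraries, so the size of its fall depends on the primed set. H19 (0.51 ± 0.52), MAGEL2 (0.27 ± 0.24), CDKN1C, and PHLDA2 (-0.50 ± 0.31) did not pass. Counts of RNA do not tell the alleles apart. The fitted log2 change turned to 5.68 for IGF2 without primed library K3.

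Glycolysis genes, which are high in primed ESCs, were lower. Of 20 symbols 19 were tested, 15 fell, 2 rose, and 2 did not pass, with a median of -0.83. SLC16A3, the lactate exporter, fell by 4.10 ± 0.45, from 39.9 to 137 CPM with a median of 76, to 4.28, 4.96, and 5.17 CPM (edgeR adjusted p = 1.4e-06). The first kinase of the pathway, HK2, fell by 2.62 ± 0.11, the glucose transporter SLC2A3 fell by 2.59 ± 0.11, and LDHA fell by 2.47 ± 0.33. LDHA was between 945.6 and 1204 CPM in the J libraries, between 383 and 513 CPM in the K libraries, and at 139, 132, and 152 CPM in NHSM-v cells, below both. PFKL (0.81 ± 0.12) and HK1 (0.45 ± 0.11) rose, and PFKM (0.20 ± 0.12) and ENO2 (0.07 ± 0.33) did not pass. Subunits of the oxidative phosphorylation complexes fell as well. Of 31 symbols 27 were tested, 15 fell, 1 rose, and 11 did not pass, with a median of -0.79. SDHD (-1.48 ± 0.34), NDUFB10 (-1.47 ± 0.15), COX5A (-1.32 ± 0.10), and NDUFB3 (-1.29 ± 0.41) fell most, and SDHA rose by 0.80 ± 0.15. The test gave no call for NDUFB3 without NHSM-v library 3 (edgeR adjusted p of 0.0655, log2 fold change -0.97).

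The genes of largest change, by the rule stated with the methods, extended these groups. POF1B, an actin-binding protein, was at 0 in primed cells and at 26.6, 32.7, and 24.7 CPM in NHSM-v cells, at least 94.8-fold higher. ATP10A, a lipid flippase, rose from 0 to 0.545 CPM with a median of 0, to 104, 111, and 130.4 CPM (10.06 ± 0.41, edgeR adjusted p = 3.07e-11). WISP1, a secreted protein first described as a target of Wnt signalling, rose from 0 to 0.747 CPM with a median of 0, to 95.1, 111, and 105 CPM (9.39 ± 0.49). SSUH2 and LRRC4B had 1 count each over the 6 primed libraries and were at 29.8, 19.5, and 27.8 CPM and 24.7, 22.5, and 19.3 CPM, with ratios of 1656 (95% interval 296 to 65472) and 1412 (95% interval 252 to 55834). On the other side, LCK, a kinase best known from T cells, was at 0 in NHSM-v cells against 125 to 144 CPM with a median of 133, at least 449-fold lower. GALR1, a galanin receptor, was at 0 against 27.6 to 50 CPM with a median of 38.7 (at least 128-fold lower), and EGR4 at 0 against 16.3 to 42.3 CPM with a median of 26.2 (at least 93.7-fold lower). IFITM1, a membrane protein of ESCs that interferon also induces, had 3 counts in all in NHSM-v cells and 349 to 434 CPM with a median of 370.4 in primed cells, a ratio of 3801 (95% interval 1301 to 18434). The other genes of this set were described above. A left-out library moved the log2 fold change to 11.93 for ATP10A without primed library J1 and 13.08 for WISP1 without primed library K1.

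Ranked by the number of CPM gained, the list was led by matrix and cytoskeleton. Fibronectin (FN1) rose from 761 to 1603 CPM with a median of 1210.4, to 8398, 8467, and 8302 CPM (2.74 ± 0.16, edgeR adjusted p = 1.67e-09). The type I collagen chain COL1A1 rose from 633 to 1771 CPM with a median of 1334, to 5991, 6597, and 6106 CPM. Gamma-actin (ACTG1) rose by 1.08 ± 0.05 and filamin A (FLNA) by 1.63 ± 0.04. IGFBP5, a binding protein of insulin-like growth factors, rose from 42.8 to 184 CPM with a median of 71.6, to 4589.7, 4493, and 4762 CPM (5.71 ± 0.33), and A2M, a secreted protease inhibitor, from 5.6 to 17.3 CPM with a median of 12.1, to 4059.6, 3952, and 4056 CPM (8.33 ± 0.22, edgeR adjusted p = 3.74e-13). For A2M no primed library exceeded 17.3 CPM. Most CPM were lost by DNMT3B, given above. SSB, an RNA-binding protein of polymerase III transcripts, fell from 2300.4 to 2697 CPM with a median of 2550.4, to 169, 153, and 151 CPM (-4.02 ± 0.08). PODXL, the sialomucin that carries the TRA-1-60 and TRA-1-81 epitopes of ESCs, fell from 1487 to 2159.5 CPM with a median of 1847, to 115, 134, and 126 CPM (-3.91 ± 0.12, edgeR adjusted p = 1.32e-12). The chaperones HSP90AB1 (-1.54 ± 0.05) and HSPA8 (-0.92 ± 0.05) and nucleolin (NCL, -1.53 ± 0.05) completed the 6 largest losses.

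The NHSM-v libraries were close to each other. Among 7867 genes with a mean of at least 20 CPM in NHSM-v cells, the highest library exceeded the lowest by a median ratio of 1.17. The ratio was over 1.5 for 485 genes and over 2 for 32. PURG, at 12.3, 30.9, and 16.9 CPM, PALMD, at 43, 18.1, and 23 CPM, ASS1, at 21.9, 50.3, and 27.4 CPM, and PTPRE, at 27.1, 14.1, and 33.1 CPM, were among the 8 most variable, together with PITHD1, KCTD9, and PBLD. KCTD9, at 32.4, 22.4, and 52.7 CPM, alone among the 8 did not pass against primed cells (-0.07 ± 0.25).

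NHSM-v cells were also set directly against E-NHSM and 4i/L/b cells, to find where NHSM-v differed from other naive protocols. E-NHSM is another version of naive human stem cell medium and 4i/L/b another published protocol. Both were applied to the same clone without tamoxifen, in 3 libraries each. Of 13392 genes tested, 9141 differed between NHSM-v and E-NHSM cells (68.3%), 4478 higher in NHSM-v (33.4%) and 4663 lower (34.8%). Of 13033 genes tested, 6532 differed between NHSM-v and 4i/L/b cells (50.1%), 3262 higher (25%) and 3270 lower (25.1%). With a change of at least 2-fold required, the numbers were 5537 and 1963.

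The pluripotency genes separated NHSM-v from E-NHSM cells. NANOG was at 165 ± 23.2 CPM in them, at least 555-fold above NHSM-v cells. POU5F1 was at 1330.1 ± 29.1 CPM, and its log2 fold change of NHSM-v over E-NHSM cells was -12.11 ± 0.11. All 14 core pluripotency genes were lower in NHSM-v than in E-NHSM cells, where 34.8% of all genes tested were. PRDM14, VTCN1, LCK, ZFP42, and CLDN7, with NANOG the 6 largest falls, were at 0 in NHSM-v cells and at 91.8 ± 6.37 CPM, 85 ± 6.62 CPM, 76.5 ± 9.35 CPM, 67.3 ± 9.47 CPM, and 47.2 ± 10.4 CPM in E-NHSM cells. The 6 largest rises, CPT1A, ASXL3, TBC1D9, WISP1, LGI1, and CLSTN2, were at 0 in all E-NHSM libraries, where low counts were also scarce, and had between 50.5 and 133 CPM in NHSM-v libraries. CPT1A, which brings fatty acids into mitochondria, was at 116, 133, and 117 CPM, at least 801-fold higher.

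Relative to 4i/L/b cells 50 genes were called with at least an 8-fold rise and 246 with at least an 8-fold fall. Of the 8 core pluripotency genes tested, 6 were lower in NHSM-v than in 4i/L/b cells and 2 higher, with a median of -2.59. The share of all genes tested that were lower was 25.1%. Members at or near 0 in NHSM-v cells could pass the filter only through 4i/L/b cells, so these shares cannot be compared. POU5F1 was at 0.878 ± 0.622 CPM and NANOG at 0.0709 ± 0.0626 CPM in 4i/L/b cells, and neither passed the filter on low counts. NHSM-v cells had more of ETV4, an ETS factor below FGF receptors, at 72.6, 69.8, and 75.5 CPM against 3.22 ± 1.21 CPM (4.53 ± 0.19, edgeR adjusted p = 2.4e-15), although both were below primed cells. ATP10A (4.78 ± 0.16), C14H11orf87 (5.27 ± 0.26), KCNQ5 (4.33 ± 0.24), FAM43B (4.24 ± 0.29), and GLIS3 (3.89 ± 0.15) made up the rest of the largest rises. SOX10, the crest factor, was at 34.3 ± 6.58 CPM in 4i/L/b cells and at 0.659, 0.405, and 0.345 CPM in NHSM-v cells (-6.18 ± 0.30, edgeR adjusted p = 3.24e-14). AGT (-7.08 ± 0.41), APOA1 (-7.05 ± 0.38), FMOD (-6.53 ± 0.42), and MMP3 (-6.47 ± 0.45) were lower in NHSM-v cells, and EGR4 was at 0 against 21.8 ± 4.23 CPM, at least 73.4-fold lower. Of the neural progenitor list, 17 of 25 genes tested were higher in NHSM-v than in 4i/L/b cells, where 25% of all genes tested were, and 1 was lower, with a median of 0.84. SOX1 was at 6.69 ± 1.57 CPM in 4i/L/b cells (2.61 ± 0.18). Of the neural crest list, 1 of 13 was higher and 8 were lower, where 25.1% of all genes tested were, with a median of -0.97, and the median of all genes tested was -0.03.

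**Figure D5:**
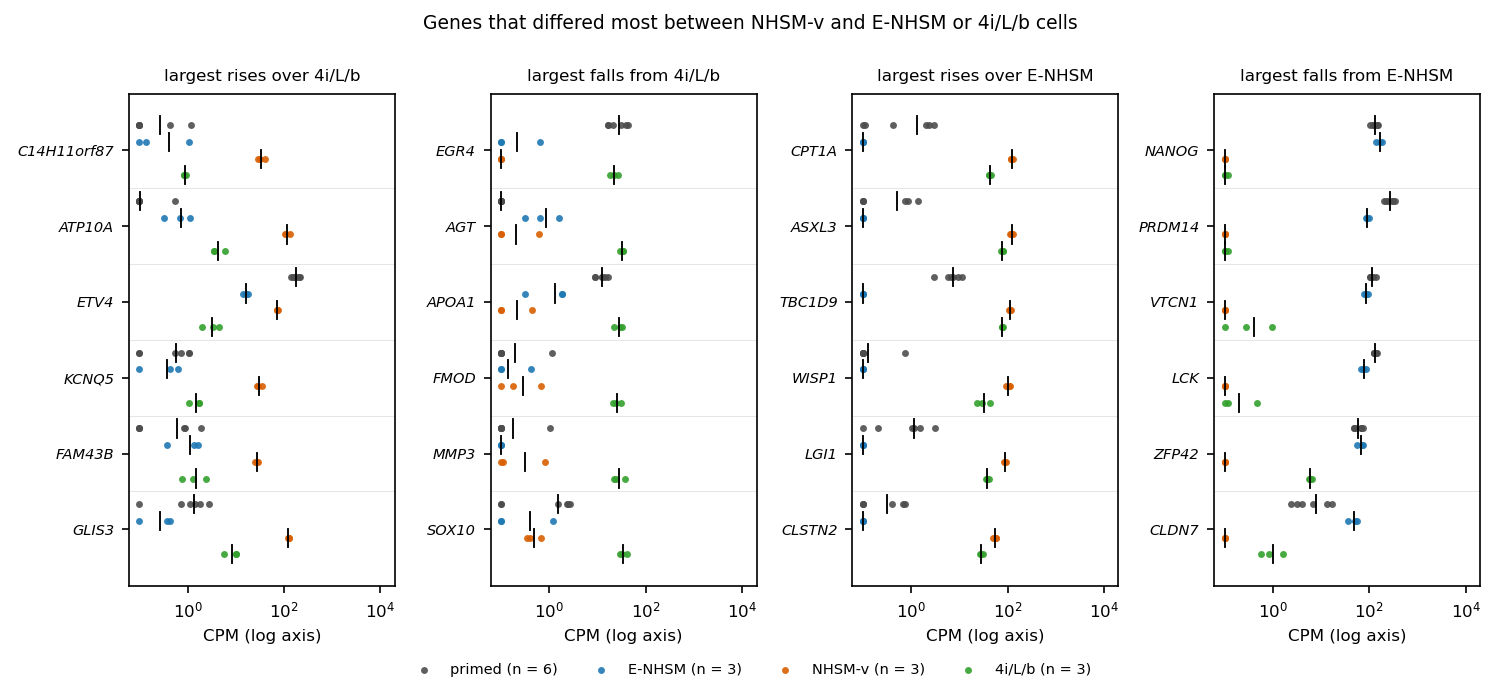
Level in each library of primed (grey, n = 6), E-NHSM (blue, n = 3), NHSM-v (orange, n = 3), and 4i/L/b cells (green, n = 3) of the 6 genes of largest rise and the 6 of largest fall of NHSM-v against 4i/L/b and against E-NHSM cells, in CPM on a log axis, with values below 0.1 CPM drawn at 0.1 and a bar at each mean. ETV4 lies between primed and 4i/L/b cells in NHSM-v libraries, and NANOG and PRDM14 separate primed and E-NHSM cells from the other 2 groups.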

How the data were processed

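RNA was sequenced from rhesus ESCs with a directional mRNA library kit. The deposited values are whole-number counts per gene symbol, and the submitters' processing notes name bcl2fastq, cutadapt, HISAT2, and HTSeq. Tool versions, build, and gene annotation are not given in the sources used here, and 0 columns of other samples were left unused. Columns were grouped by their names and labels, and the 6 primed columns were treated as a single group because the letters J and K are in no label. Titles and protocol labels divide the primed samples further, but they disagree for some libraries.

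Counts were analysed in R 4.3.3 with edgeR 4.0.16 (filterByExpr, TMM, quasi-likelihood test, Benjamini-Hochberg adjusted p under 0.05) for each pair of groups separately. Levels are CPM on a TMM scale over NHSM-v, primed, E-NHSM, and 4i/L/b libraries. Against a group at 0 in all libraries a bound was computed with 3 counts in each of its libraries, and for groups with 1 to 3 counts in all, the ratio of counts was given with its exact 95% interval. The scripts were tested on simulated counts.

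Members and gene lists were chosen with earlier results of these data known. Named genes were, per list, up to 4 called members of largest change in each direction and the uncalled ones where 5 or fewer, besides OCT4, NANOG, SOX2, PRDM14, TFAP2C, KLF4, TFE3, and the DNA methylation genes. Some genes counted in their lists are not reported here by name. Outside lists they were the 12 largest rises and falls with at least 20 CPM and no overlap, the 6 genes that gained and the 6 that lost most CPM, the 8 most variable genes in NHSM-v, and the 6 largest rises and falls against each other protocol. The following were picked after their values were seen: ACTA2, CDH2, CLDN6, DPPA2, DPPA4, ID2, L1TD1, LMX1A, LMX1B, MSX1, PAX3, SALL2, SALL4, STAT3, UTF1, ZIC1, and ZIC2. Alternatives were DESeq2 1.42.0, 2 other normalisations, other filters, the letters J and K alone, a fit of all groups, a replicate block, and each library left out. Same-numbered samples did not deviate together.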

Additional observations from a re-analysis of the deposited data

Results flagged for a closer look

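In the group of 6 primed libraries, 11 of the 271 named genes that reached at least 5 CPM in a primed library had 1 library far from the other 5, by Dixon's test of the gap at its 95% critical value. Chance alone flags about 1 in 20 groups, and the share flagged here, 4.06%, was no higher than that. Primed library J2 stood apart for CLDN6 at 514 CPM against 447 to 467 CPM in the other 5 primed libraries. Primed library J3 stood apart for CD34 at 7.7 CPM against 0 to 2.29, CXCR4 at 11.5 CPM against 0 to 2.63, and E2F2 at 13.3 CPM against 2.61 to 5.68 CPM in the other 5 primed libraries. Primed library J3 stood apart for GATA6 at 7.14 CPM against 0 to 2, HEY1 at 12.7 CPM against 1.05 to 2.08, and HK1 at 207 CPM against 147 to 157 CPM in the other 5 primed libraries. Primed library J3 stood apart for VWF at 18.1 CPM against 0.581 to 6.1 CPM in the other 5 primed libraries. Primed library K1 stood apart for AEN at 37.7 CPM against 21.3 to 25.9, IGFBP5 at 184 CPM against 42.8 to 91.7, and SEMA5B at 43.1 CPM against 62.8 to 73.8 CPM in the other 5 primed libraries.

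NHSM-v cells differed from E-NHSM and from 4i/L/b cells in a direct test of the difference. The remaining protocols of the series were not tested against them. The number of genes that differed was 9141 for E-NHSM cells and 6532 for 4i/L/b cells.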

How the results depend on the processing

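The number of genes that differed from primed cells stayed within 1.5 times under other tools, normalisations, and filters, and no gene called in both fits changed direction. It was 8056 with DESeq2, 6707 with at least 10 counts in every library, 9341 with all groups in 1 fit, 7316 against the J libraries alone, and 8173 against the K libraries alone. It ranged from 6790 to 8186 with 1 library left out, and the corresponding ranges were 8712 to 8963 for E-NHSM and 5335 to 6624 for 4i/L/b cells. With a log2 fold change of at least 1 also required, which is stricter by construction, 4560 genes differed from primed cells (2328 higher and 2232 lower), 5537 from E-NHSM cells, and 1963 from 4i/L/b cells, of which 39.6% were higher against 49.9% of all calls. Upper-quartile normalisation moved the median of all genes against E-NHSM cells to -0.12, and the absence of a filter moved it to -0.11 against 4i/L/b cells. With every count under 20 raised to 20, an alternative chosen after seeing the data, the numbers were 7903, 9643, and 6495, and 12 genes called against E-NHSM cells changed direction.

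Same-numbered NHSM-v and primed samples correlated between -0.0275 and -0.00816 in their deviations from the group means, and others between -0.00188 and 0.0167, so the numbers give no pairing. With the replicate block 7468 genes differed from primed cells (3615 higher and 3853 lower), 8787 from E-NHSM cells, and 6387 from 4i/L/b cells.

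Of 358 genes named and tested, 24 of the 284 called lost their call without 1 library, and the sign turned for 32, of which 31 had not passed the test. Against the libraries of a single letter, J or K, 14 lost it. With low counts raised to 20, 7 lost it (AEN, BCL3, DCN, FOXA2, PECAM1, TCF15, and UTF1), so that 13 of 14 core pluripotency genes were lower, and the fold change of 105 called genes shrank by over 1.5 times, by construction of that floor. With the replicate block AEN, CER1, ETS1, FGF18, IRF1, SOX3, and SUSD2 lost theirs. With DESeq2 the log2 fold change turned to 0.0024 for CDK4 and 0.0011 for EBF2. With low counts raised to 20 the log2 fold change turned to -0.021 for FGF1, 0.013 for OVOL1, and -0.14 for POU3F1. With library totals only the log2 fold change turned to -0.0052 for RB1. Against the J libraries alone the log2 fold change turned to -0.27 for CD34, 0.33 for CDKN1C, 0.71 for EBF2, -0.36 for ENO2, 0.24 for FOSL1, 0.013 for KCTD9, 0.022 for ROBO2, -0.024 for SMO, 0.29 for SOCS3, 0.12 for SPRED2, 0.23 for TCF7, 1.07 for TEK, and -0.22 for TWIST2. Against the K libraries alone the log2 fold change turned to 0.0065 for CDK4, -0.048 for CDKN1B, 0.78 for CER1, -0.16 for CYP26A1, -0.19 for FGF1, -0.56 for FGF9, 0.063 for HEY1, 0.041 for KDR, -0.068 for MITF, -0.11 for PHLDA1, -0.41 for POU3F1, and -0.39 for RB1. With the replicate block the log2 fold change turned to 0.024 for EBF2, 0.0046 for FOSL1, and 0.073 for GATA6. With 1 library left out the sign turned, with these ranges over all left-out libraries, for CDK4 (-0.10 to 0.053), DLL3 (-0.86 to 0.032), EBF2 (-0.31 to 0.20), ENO2 (-0.021 to 0.41), EPHA3 (-0.22 to 0.18), FGF1 (-0.026 to 0.33), FGF9 (-0.60 to 0.64), FOSL1 (-0.63 to 0.23), GATA4 (-1.87 to 0.73), GATA6 (-0.74 to 1.24), HEY1 (-1.27 to 0.27), IRX3 (-0.0099 to 0.28), KCTD9 (-0.45 to 0.17), POU3F1 (-0.36 to 0.92), RB1 (-0.13 to 0.18), RDH10 (-0.19 to 0.28), and SOCS3 (-0.24 to 0.018). RB1 passed the test against the K libraries and TEK against the J libraries, with edgeR adjusted p of 0.000983 and 0.0386. The cause was not tested. Depth limits low genes, since values near 0 rest on a few counts.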

Other observations

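Genes of cholesterol synthesis mostly rose. Of 21 symbols 20 were tested, 11 rose, 1 fell, and 8 did not pass, with a median of 0.51. TM7SF2, an enzyme of the pathway, rose from 2.66 to 15.8 CPM with a median of 7.44, to 17.6, 18.3, and 28.2 CPM (1.34 ± 0.45, edgeR adjusted p = 0.0188), and MVK, another, rose by 1.27 ± 0.30. INSIG1, which holds back the sterol-sensing machinery, fell by 0.98 ± 0.24. The call did not hold for TM7SF2 without NHSM-v library 3 or against the J libraries alone (edgeR adjusted p of up to 0.109, log2 fold change 1.03 to 1.10).

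Subunits of the BAF chromatin remodelling complex moved both ways. Of 14 symbols 13 were tested, 5 rose, 5 fell, and 3 did not pass. DPF3 rose from 0 to 0.436 CPM with a median of 0, to 41.2, 35.6, and 38.8 CPM (8.71 ± 0.56, edgeR adjusted p = 4.64e-09). SMARCD3 (2.39 ± 0.33) and the ATPase SMARCA2 (1.22 ± 0.26) rose as well, while SMARCC1, the subunit of the form found in ESCs, fell from 794 to 979.6 CPM with a median of 894, to 574, 593, and 613 CPM (-0.61 ± 0.08). ACTL6A (-1.05 ± 0.12) and SS18 (-0.65 ± 0.11) also fell. The log2 value was 10.36 for DPF3 without primed library J1.

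Interferon-stimulated genes were mostly low and moved apart, with 9 of 16 symbols tested, 2 higher, 5 lower, and 2 not called. IFI6 rose by 5.30 ± 0.88, to 6.48, 9.01, and 11.2 CPM, and IRF1 by 2.50 ± 1.01. BST2 (-3.41 ± 0.68) and MX1 (-2.64 ± 0.29) fell. Of 13 YAP targets and partners 10 were tested, 3 rose, 3 fell, and 4 did not pass. The shares that rose and fell, 30% each, were near the 28% and 30.6% of all genes tested. AXL, a receptor tyrosine kinase, rose from 41 to 69.1 CPM with a median of 60.9, to 359.5, 315, and 349.8 CPM (2.50 ± 0.13, edgeR adjusted p = 3.71e-10), and YAP1 itself fell by 0.72 ± 0.11. The call was lost for IRF1 without NHSM-v library 1, 2, or 3 or primed library J1 or K3 (edgeR adjusted p of up to 0.183, log2 fold change 2.15 to 2.82). Leaving out 1 library gave a log2 value of 6.12 for IFI6 without primed library K2 and -4.24 for BST2 without NHSM-v library 2.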
